A study of Homo sapiens with 30 samples.

Results

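The zinc finger gene clusters of human chromosome 19 were examined in 5 windows of the hg19 genome build, and the members are the deposited regions whose middle lies in a window. Window A runs from 19.7 to 24.2 Mb, window B from 36.9 to 38.3 Mb, window C from 44.3 to 45.0 Mb, window D from 52.0 to 53.9 Mb and window E from 56.0 to 58.9 Mb. Among the deposited regions, which include those the authors had selected for a difference between genotypes, members were chosen by position. They are 278 of the 89929 regions that the authors listed as differing between genotypes, and 64 of the 22974 regions in their clusters of wild-type regions. The assay was ATAC-seq, in which a transposase cuts and tags accessible DNA. The cells were HUES8, an established human embryonic stem cell line, either control (wild type) or HNF6 KO, which lack HNF6 (ONECUT1), a homeodomain transcription factor of liver and pancreas development. Both genotypes were taken undifferentiated (ESC) and, along a pancreatic differentiation in vitro, at 4 later stages, in 10 groups of 3 samples. DE is the definitive endoderm and GT the gut tube that forms from it, while PE and PP are the pancreatic endoderm and the pancreatic progenitors. The sources used here do not give how the knockout was made, whether it is 1 clone, or whether a group's samples are separate cultures, so the spread between samples may be technical.

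Most genes in such clusters encode KRAB zinc finger proteins, a large family of DNA-binding repressors that arose by repeated tandem duplication. Arrays of zinc fingers read the DNA, many of them in transposable elements, and the KRAB domain recruits TRIM28, which in turn brings the histone methyltransferase SETDB1. The gene bodies in these clusters are known to carry the repressive mark H3K9me3 in many human cell types, while their promoters often stay open. Members of the family act in pluripotent cells, in imprinting and in the silencing of retroelements. No hg19 genome or annotation was used here, so regions are named by position and not by gene. In the RefSeq gene table of another build (GRCh38.p14), 263 of 1451 protein-coding genes of chromosome 19 have symbols beginning with ZNF, ZFP, ZSCAN or ZIK. Of these, 239 (90.9%) have another such gene as a direct neighbour, against 86 of the other 1188 genes (7.24%). That the 5 windows hold these genes rests on their definition and could not be checked on hg19.

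Each differential region carries 3 knockout and 3 control values, a log2 ratio of control to knockout and a -log10 p of at least 5, all set by the authors. A negative ratio therefore means more accessible in knockout. In libraries made from many cells, more cells with an open region and more access per cell cannot be told apart. Which values belong to which genotype was read from the names of the lists. The sources do not say if the values are raw or scaled counts, and the depth of each library is unknown. Summed over the listed regions, a library's values came to between 2060676 (GT) and 7736564 (PP), and within a stage the highest sum was at most 1.63 times the lowest. The values of the members summed to between 7058 and 53610 per library.

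The windows were sparse in differential regions. They held 24.4 listed regions per Mb, against 70.1 per Mb over the rest of chromosome 19, counting each stage and direction separately. The sparsity was not particular to differential regions. The windows held 7.72% of the chromosome's differential regions and 6.63% of its wild-type cluster regions. Among the windows, the density went from 14.7 per Mb in window A (66 regions) through 22.9 in C (16 regions), 24.3 in B (34 regions) and 29.5 in D (56 regions) to 36.6 per Mb in E (106 regions). Over all stages 177 members were listed as higher in knockout and 101 as higher in control. The control share of 36.3% (95% Wilson interval 30.9 to 42.1%) lay beside 40.7% (39.1 to 42.4%) for the rest of the chromosome and 31.6% for the other autosomes. Wilson intervals here cover counting error only, since regions are not replicates.

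The direction differed between stages, and the undifferentiated cells stood furthest from the rest of their chromosome. In ESC, 66 members were higher in knockout and 29 in control, a control share of 30.5% (Wilson 22.2 to 40.4%). The rest of chromosome 19 had the opposite majority at that stage, 58.2% (54.9 to 61.4%). The other autosomes had a knockout majority, as the windows did, with a control share of 42.2% (41.5 to 43.0%). When the rest was divided into bins of 5 Mb, the 10 bins with enough regions had control shares between 46.4 and 81.0%, and 0 of them were at or below the share of the windows. Put the other way, the windows held 15.4% (12.3 to 19.1%) of chromosome 19's knockout-higher ESC regions but 5.44% (3.81 to 7.70%) of its control-higher ones. All 5 windows had more knockout-higher than control-higher regions in ESC: 16 against 3 in window A, 9 against 4 in B, 4 against 0 in C, 16 against 5 in D and 21 against 17 in E.

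At the DE stage, 47 members were higher in knockout and 13 in control, again with a knockout majority in all 5 windows. Window A had 13 members higher in knockout and 0 in control at that stage. The DE control share of 21.7% (Wilson 13.1 to 33.6%) was close to the 22.9% of the rest of chromosome 19, so that the direction at DE was shared with the chromosome. On the other autosomes the DE control share was 37.9%. At GT the control share was 42.4% (27.2 to 59.2%), from 14 control-higher and 19 knockout-higher members, beside 32.3% in the rest and 26.8% on the other autosomes. At PE it was 39.4% (24.7 to 56.3%), from 13 and 20 members, beside 24.0% in the rest and 57.6% on the other autosomes. In PP it reached 56.1% (43.3 to 68.2%), from 32 and 25 members, beside 51.9% in the rest of chromosome 19 and 9.98% on the other autosomes. Of the 5 Mb bins of the rest, 5 of 10 lay at or below the share of the windows in DE, 8 of 9 in GT, 8 of 9 in PE and 8 of 10 in PP.

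**Figure D1:**
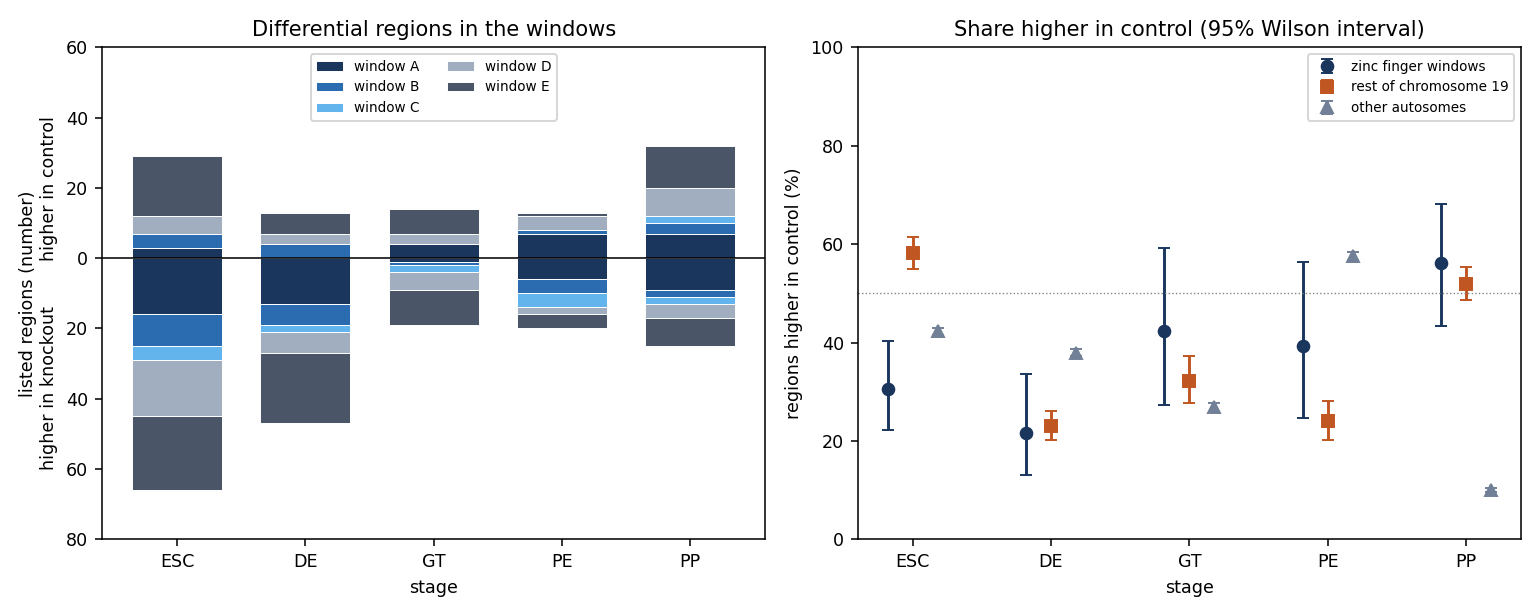
Left, number of listed regions in the 5 windows at each stage, drawn upward for higher in control and downward for higher in knockout, with each window in its own shade. Right, percentage of listed regions that were higher in control, in the zinc finger windows, the rest of chromosome 19 and the other autosomes, with 95% Wilson intervals. In ESC the windows were at 30.5%, the rest of the chromosome at 58.2% and the other autosomes at 42.2%.

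Pooled over the stages, the members' ratios were of a size between those of the chromosome and of the genome. The median size of the deposited log2 ratio was 0.79 in the windows (range 0.28 to 2.97), beside 0.71 in the rest of chromosome 19 and 0.94 over all listed regions. This order did not hold at each stage. In GT the members' median of 1.02 was above both (0.88 and 1.01), and in PP their 0.71 was below both (0.77 and 1.06). In PE it was 0.79, as over all listed regions, beside 0.64 in the rest. A 2-fold difference or more was given for 99 members (35.6%), beside 27.4% in the rest and 45.4% overall. The median width was 800 bp (200 to 3200 bp), against 950 bp in the rest. Knockout-higher members had the larger median sizes at every stage: 0.81 against 0.46 in ESC, 0.96 against 0.78 in DE, 1.09 against 0.93 in GT, 0.81 against 0.79 in PE and 1.02 against 0.52 in PP. In the rest of the chromosome the knockout-higher regions also had the larger median in ESC (0.66 against 0.57), GT (0.91 against 0.80) and PP (1.01 against 0.51), but the smaller one in DE (0.70 against 0.83) and PE (0.58 against 0.92). Among members of 2-fold or more, the control share was 18.75% in ESC (6 control-higher and 26 knockout-higher), beside 44.5% in the rest of the chromosome. It was 20.8% in DE (5 and 19) beside 30.4%, 33.3% in GT (6 and 12) beside 25.7%, 27.3% in PE (3 and 8) beside 41.8%, and 7.14% in PP (1 and 13) beside 22.6%. A knockout majority among regions of 2-fold or more was thus common to the windows and the rest of the chromosome at each stage. On the other autosomes the control share at this size was 31.5% in ESC, 51.0% in DE, 22.3% in GT, 73.7% in PE and 7.74% in PP. Among regions of 2-fold or more, the windows in PP were thus near the other autosomes, unlike over all sizes. In PP the control-higher members had high values and small ratios (median control mean 607), and the knockout-higher members lower values (median knockout mean 204.3). The rest of the chromosome had the same pattern in PP, with median means of 718.3 and 180.2.

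Against the spread between libraries, nearly every member passed, as did nearly every other listed region, because the authors had selected all of them for a difference in these same libraries. limma on log2(value + 1), with Benjamini-Hochberg adjustment over all regions listed at a stage, called 83 of 95 members in ESC at an adjusted p under 0.05: 59 higher in knockout, where the share over all listed ESC regions was 54.4%, and 24 higher in control, where it was 39.4%. In DE, 45 members were called higher in knockout (background 59.9%) and 11 in control (36.1%). In GT all 33 members were called, 19 higher in knockout (72.2%) and 14 in control (26.9%). In PE, 20 were called higher in knockout (39.7%) and 12 in control (53.1%). In PP, 25 were called higher in knockout (85.6%) and 31 in control (11%). The 3 values of one genotype lay wholly above the 3 of the other in 223 of 278 members (80.2%), beside 74.4% in the rest of the chromosome. By stage these were 75 of 95 members in ESC (all listed 76.1%), 45 of 60 in DE (77.5%), 25 of 33 in GT (82.6%), 28 of 33 in PE (77.5%) and 50 of 57 in PP (79.8%). The non-overlap shares were near their background. In this fit the limma calls follow the list a region comes from. Their split by direction thus restates the direction of the lists and is not separate evidence. In PP 54.4% of members were called higher in control, beside 49.0% in the rest of chromosome 19 and 11% of all listed regions. The PP split was not stable. Without the trend 10.5% of members were called higher in control and 28.1% in knockout (all listed 5.28 and 53.4%). With library medians equalised within genotype these were 38.6 and 42.1% (all listed 9.65 and 84.9%). The limma calls depend strongly on the settings and on single libraries. Without ESC knockout library 3 of the deposited order 30 members (31.6%) were called in place of 83 (87.4%). Over all listed ESC regions the share called fell likewise, from 93.8 to 33.9%. Under each of 10 alternatives 49 of the 278 members (17.6%) were called, and the same share was not counted for the other listed regions.

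Joining overlapping members of all stages gave 240 loci, of which 215 were listed at a single stage. Of those, 136 were higher in knockout and 79 in control. A further 25 loci (10.4%) were listed at 2 or more stages, against 458 of 2738 (16.7%) in the rest of chromosome 19 and 9363 of 73706 (12.7%) on the other autosomes. The stages share no libraries. Of the 8 loci listed at 3 stages or more, 6 (75%) kept 1 direction, and all 6 were higher in knockout. In the rest of the chromosome 14 of 83 such loci (16.9%) kept 1 direction, and on the other autosomes 519 of 1630 (31.8%), 457 of them higher in knockout. These 6 loci are few, and the difference in shares was not tested.

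The recurrent loci are named below by window letter and by their order along the chromosome. The more centromeric windows and the distal ones differed in how their loci behaved. Windows A to C held 11 recurrent loci, of which 9 were higher in knockout at each listed stage, 1 was higher in control and 1 changed direction between stages. Windows D and E held 14, of which 1 was higher in knockout throughout, 4 higher in control and 9 changed direction. This grouping of windows was made after the values were seen. Some loci lay close together: A4 and A5 are 56200 bp apart, C1 and C2 59400 bp, D3 and D4 33350 bp, and the 4 loci E1 to E4 follow each other with gaps of 13300, 23450 and 38600 bp.

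**Figure D2:**
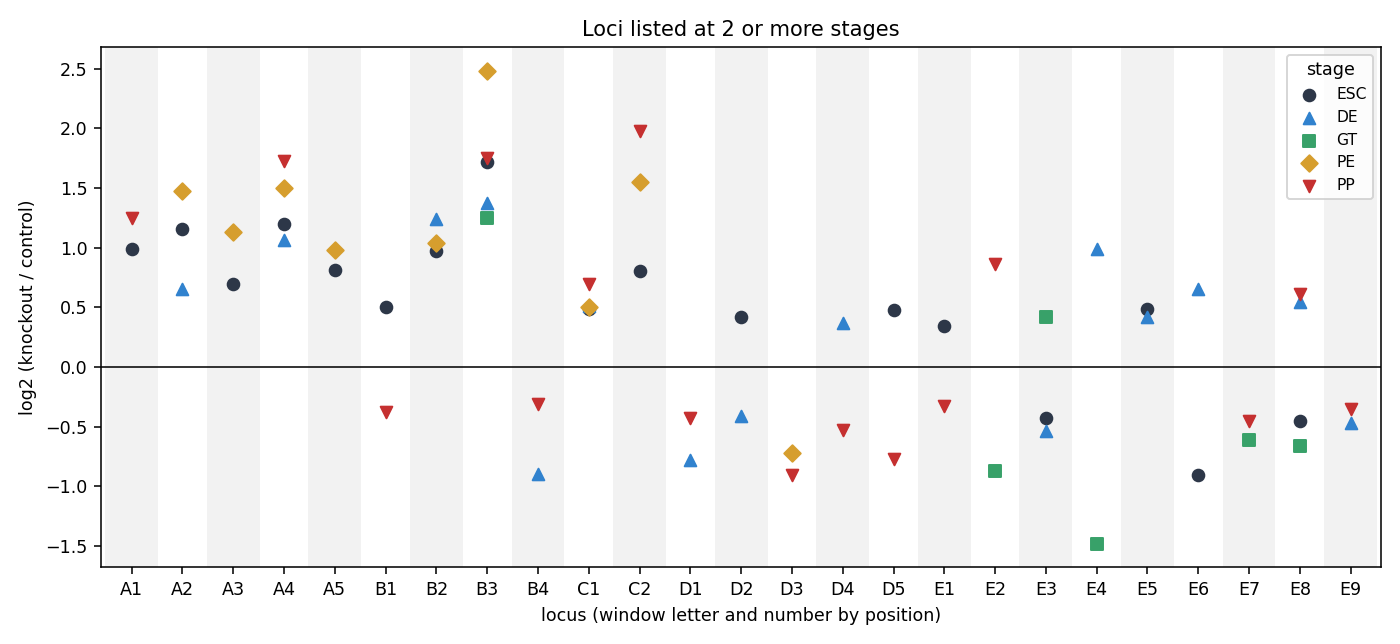
Log2 ratio of knockout to control (the deposited ratio with its sign turned) for the 25 loci listed at 2 or more stages, in order along chromosome 19, with 1 symbol per listed stage. Loci of windows A to C lie mostly above 0, led by B3 at all 5 stages, while 9 of the 14 loci of windows D and E have symbols on both sides of 0.

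Locus B3 (chr19:37742301-37743150) was the member listed at all 5 stages. It is 1 of 10 autosomal loci listed at all 5 stages in 1 direction, 7 of them higher in knockout. In the authors' deposited table for ESC its knockout values were 315, 454 and 432 and its control values 100, 166 and 97, a log2 ratio of -1.72. In DE the knockout values were 184, 291 and 314 and the control values 137, 107 and 58 (log2 ratio -1.38), and in GT 174, 220 and 172 against 79, 78 and 80 (-1.25). In no stage did the groups overlap. The widest gap came in PE, where the authors' deposited table gives 385, 414 and 460 in knockout and 82, 76 and 65 in control, a log2 ratio of -2.48 with a -log10 p of 55.0. The PE control mean was 17.7% of the knockout mean, and this was the highest -log10 p of any knockout-higher autosomal region at that stage. In PP the knockout values were 297, 426 and 547 and the control values 69, 103 and 202 (-1.76). The limma estimate was -2.48 ± 0.31 (SE) in PE (Benjamini-Hochberg adjusted p = 2.22e-06), -1.75 ± 0.30 in ESC (0.00318), -1.85 ± 0.33 in PP (0.0021), -1.24 ± 0.35 in GT (0.0167) and -1.42 ± 0.36 in DE (0.0247). Under each of the 10 alternatives B3 was called at every stage.

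Locus A4 (chr19:24097251-24098200) was higher in knockout at 4 stages and was not listed at GT. The authors' deposited table for ESC gives 568, 537 and 589 in knockout and 281, 278 and 178 in control, a log2 ratio of -1.20. In DE the values were 471, 304 and 288 against 214, 129 and 165 (-1.06), and in PE 459, 657 and 538 against 216, 154 and 212 (-1.50, -log10 p 36.4). In PP they were 591, 559 and 380 against 144, 170 and 145, a log2 ratio of -1.73 with a -log10 p of 41.3. The knockout values stayed between 288 and 657 while the control mean in PP was 30.0% of the knockout mean, and no groups overlapped. By limma with Benjamini-Hochberg adjustment the difference was -1.71 ± 0.26 in PP (adjusted p = 0.000254), and A4 was called under each of the 10 alternatives at all 4 stages. On the autosomes it ranked 6th in PE and 7th in PP among knockout-higher regions by the authors' -log10 p, and 35th in ESC.

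**Figure D3:**
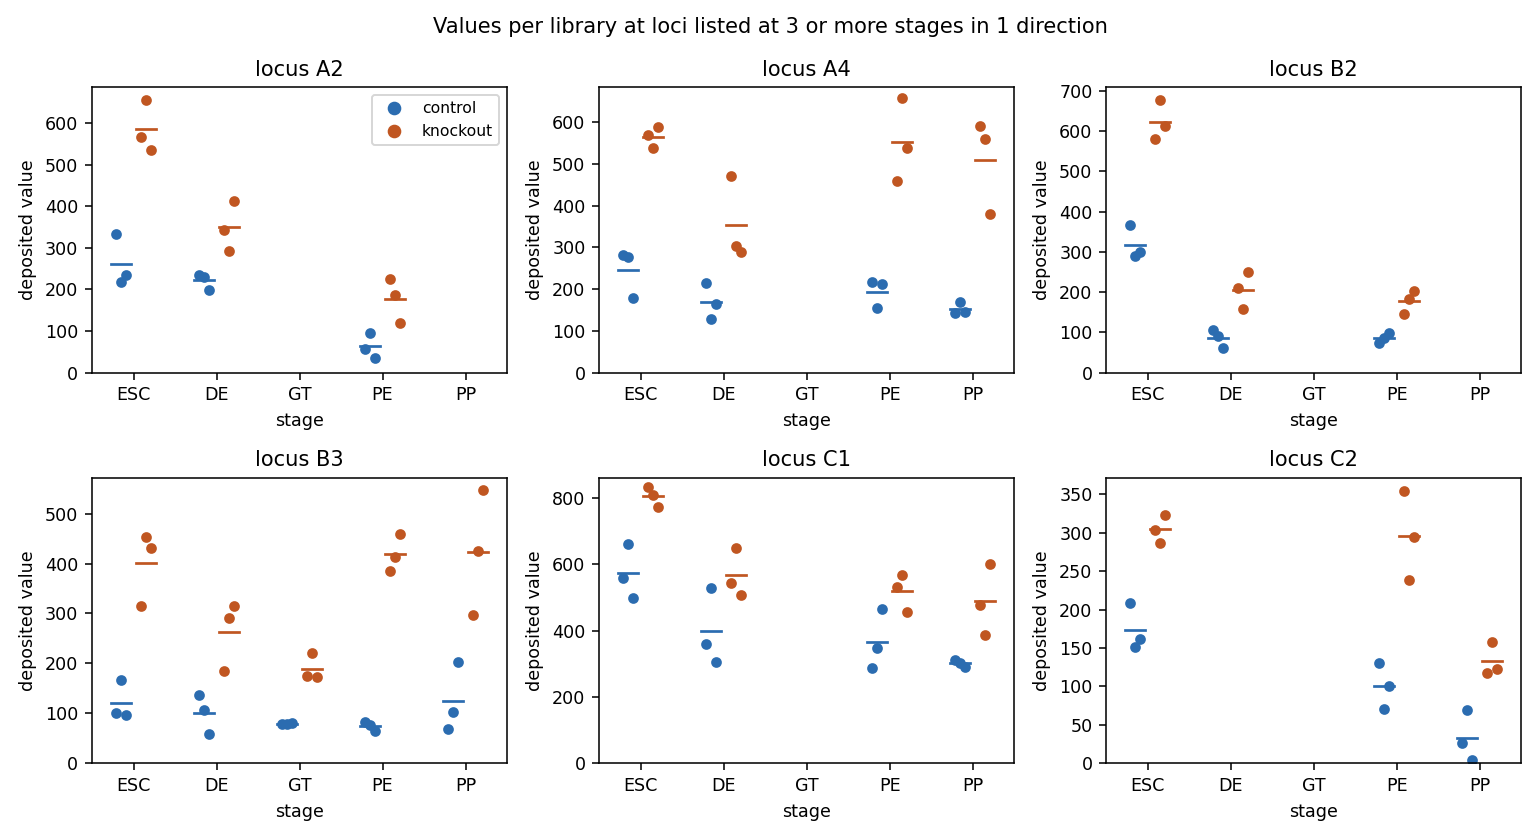
Deposited values of each library at the 6 loci that were listed at 3 or more stages and in 1 direction, by stage, with control and knockout in different colours and lines at the group means; a stage without points is one at which the locus was not listed. B3, A4, A2, B2 and C2 show no overlap between the genotypes at any listed stage, whereas C1 overlaps in DE and PE.

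A2 and B2 were higher in knockout at 3 stages each. At A2 (chr19:23253051-23254600) the authors' deposited table gives 567, 655 and 534 in knockout against 333, 218 and 235 in control in ESC (log2 ratio -1.16). It gives 343, 293 and 413 against 236, 230 and 199 in DE (-0.66), and 225, 186 and 119 against 57, 96 and 36 in PE (-1.47). B2 (chr19:37265901-37267550) had 581, 678 and 612 against 366, 289 and 299 in ESC (-0.97). In DE it had 211, 158 and 249 against 107, 92 and 61 (-1.24), and in PE 147, 183 and 203 against 73, 87 and 98 (-1.04). At both loci the groups were apart at all 3 stages, and the listed interval was widest in ESC.

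Locus C2 (chr19:44615951-44616700) had its smallest ratio in ESC and its largest in PP. The authors' deposited table gives 303, 287 and 323 in knockout against 208, 152 and 162 in control in ESC (-0.80). In PE it gives 354, 238 and 295 against 130, 71 and 100 (-1.55), and in PP 117, 158 and 123 against 26, 69 and 4 (-1.98). Its neighbour C1 (chr19:44554701-44556550) moved less, with log2 ratios of -0.49 in ESC, -0.51 in DE, -0.50 in PE and -0.70 in PP in the authors' deposited table. At C1 1 control value reached into the knockout range in DE (529 against a lowest knockout value of 508) and in PE (465 against 455). C1 was called under 4 of 10 alternatives in ESC, 5 in DE, 5 in PE and 8 in PP, so its calls are less firm than those of C2, which was called under 8 in ESC and all 10 in PE and PP.

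A1, A3 and A5 were higher in knockout at 2 stages each. At A1 (chr19:21657101-21658250) the authors' deposited table gives 402, 419 and 585 against 271, 202 and 234 in ESC (-0.99) and 193, 196 and 224 against 67, 120 and 69 in PP (-1.25). A3 (chr19:23653551-23654500) and A5 (chr19:24154401-24155450) were listed in ESC and PE, with ratios of -0.70 and -1.13 for A3 and -0.81 and -0.98 for A5. In ESC both had a control value within the knockout range (238 at A3, above the knockout value of 223, and 288 at A5, above 286), and in PE neither did. In windows D and E, E5 (chr19:56596351-56600650) was higher in knockout in ESC (-0.49) and in DE (-0.42).

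Fewer recurrent loci were higher in control throughout, and each was listed at 2 stages. D3 (chr19:52995851-52996850) had the largest ratios of them in the pancreatic stages. In PE the authors' deposited table gives 667, 687 and 909 in control against 474, 463 and 430 in knockout (log2 ratio 0.73, -log10 p 14.8), and in PP 326, 289 and 377 against 281, 143 and 105 (0.90). The groups were apart at both stages, although in PP the highest knockout value (281) lay just below the lowest control value (289). By limma with Benjamini-Hochberg adjustment D3 had an adjusted p of 0.0134 in PE and 0.0164 in PP. The others were B4 (chr19:38145601-38147250; 0.90 in DE and 0.31 in PP), D1 (chr19:52074201-52075050; 0.78 in DE and 0.43 in PP), E7 (chr19:58094651-58096000; 0.61 in GT and 0.45 in PP) and E9 (chr19:58789351-58790500; 0.47 in DE and 0.36 in PP). In each of these lists the 3 control values lay above the 3 knockout values. All 5 loci were listed in PP and none in ESC.

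Of the 25 recurrent loci, 10 held regions of both directions at different stages, and 9 of them lay in windows D and E. In the rest of chromosome 19, 251 of 458 recurrent loci held both directions, and 4491 of 9363 on the other autosomes. Turning loci were thus not more frequent in the windows. E8 (chr19:58548901-58550900) changed direction with each listed stage. In the authors' deposited table it was higher in control in ESC (679, 513 and 670 against 408, 510 and 442, log2 ratio 0.45), and higher in knockout in DE (530, 487 and 511 against 427, 328 and 289, -0.55). In GT it was higher in control (505, 389 and 421 against 320, 293 and 215, 0.67), and in PP higher in knockout (327, 329 and 327 against 170, 231 and 241, -0.61). No pair of groups overlapped, but in ESC the closest control and knockout values were 513 and 510. The opposite intervals of E8 shared between 650 and 1400 bp.

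E4 (chr19:56194601-56196700) had the largest ratios of the loci that turned. The authors' deposited table for DE gives 412, 286 and 411 in knockout against 180, 220 and 157 in control (-0.99), and for GT 195, 196 and 204 in control against 70, 74 and 67 in knockout (1.48, -log10 p 11.3). The DE interval of 1550 bp and the GT interval of 900 bp shared 350 bp, so the opposite ratios were measured over largely different stretches. At E2 (chr19:56125801-56127950) the shared stretch was 500 bp, with 318, 233 and 305 in control against 135, 124 and 207 in knockout in GT (0.87) and 271, 332 and 385 in knockout against 205, 116 and 220 in control in PP (-0.87).

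At E6 (chr19:56671651-56673500) the ESC interval, higher in control (222, 155 and 157 against 36, 148 and 99, log2 ratio 0.91 in the authors' deposited table), lay wholly inside the DE interval of 1850 bp, which was higher in knockout (626, 427 and 497 against 368, 366 and 252, -0.65). E3 (chr19:56151401-56156000) was higher in control in ESC (1622, 1506 and 1407 against 1319, 1060 and 993, 0.43) and in DE (0.54, groups overlapping), and higher in knockout in GT (989, 952 and 875 against 754, 591 and 764, -0.42). D2 (chr19:52205351-52208700) was higher in knockout in ESC (-0.42) and in control in DE (0.41). D5 (chr19:53699801-53701450), B1 (chr19:37177451-37178900), D4 (chr19:53030201-53032150) and E1 (chr19:56110451-56112500) were higher in knockout at ESC or DE and higher in control in PP. Their ratios in the authors' deposited table were -0.47 and 0.77 for D5, -0.50 and 0.38 for B1, -0.36 and 0.53 for D4, and -0.34 and 0.32 for E1. B1's intervals shared 100 bp. D4 in DE and E1 in PP had overlapping groups and were not called by limma. Whether the difference itself changed between stages was not tested at any of these loci.

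**Figure D4:**
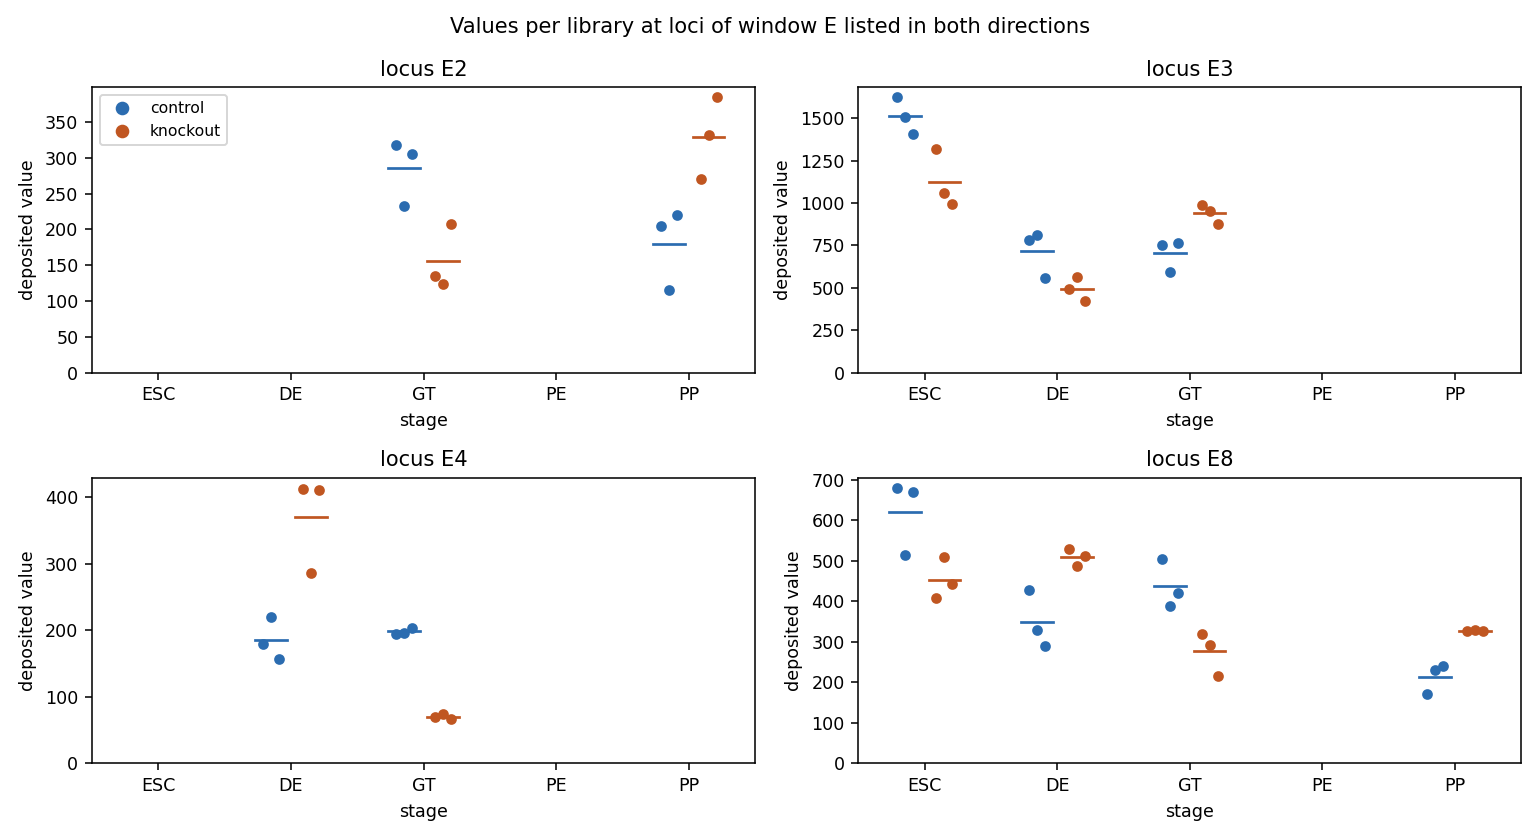
Deposited values of each library, by stage, at 4 loci of window E (E2, E3, E4 and E8) that were listed in opposite directions at different stages, with control and knockout in different colours and lines at the group means. At E8 the control values are above the knockout values in ESC and GT and below them in DE and PP.

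Members listed at a single stage included some of the largest ratios, given further below, and some regions of high -log10 p or large width. Higher in knockout in ESC, chr19:58668451-58669500 had 764, 640 and 786 against 446, 305 and 302 in control (log2 ratio -1.05, -log10 p 26.8 in the authors' deposited table), the 24th highest -log10 p among knockout-higher autosomal ESC regions. The widest member, chr19:56164451-56167650 at 3200 bp, had 2116, 2022 and 2246 against 1610, 1442 and 1558 in ESC (-0.47, -log10 p 18.8). Both had groups well apart. A second wide member, chr19:58863351-58866500 in GT, had overlapping groups, with 646, 573 and 915 in knockout against 386, 481 and 641 in control (-0.50). In window D the knockout-higher member with the highest -log10 p was chr19:53868551-53869700 in ESC (1175, 1105 and 860 against 855, 704 and 579, -0.55), where the lowest knockout value lay just above the highest control value.

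Apart from B3 in PE, the largest knockout-higher ratios among the members named here came from regions of low values. At chr19:21582051-21582300 in DE the authors' deposited table gives 60, 66 and 28 in knockout against 17, 0 and 0 in control (log2 ratio -2.97), and at chr19:58783651-58783950 in ESC 30, 36 and 140 against 11, 6 and 17 (-2.50), where 1 knockout value carried most of the difference. The member nearest the end of window A, chr19:24173951-24174350, had 159, 122 and 114 against 32, 45 and 10 in PE (-2.14). Smaller ratios were found in GT. There chr19:58848001-58848700 had 124, 186 and 188 against 82, 40 and 72 (-1.35), and chr19:58894301-58895100 had 215, 185 and 281 against 49, 102 and 168 (-1.09). In PP, chr19:37783901-37784950, in the same window as B3, had higher values and a smaller ratio. Its values were 878, 614 and 691 against 400, 430 and 520 (-0.69).

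Higher in control, the largest ratio was at chr19:38179401-38179700 in PE, with 81, 106 and 66 in control against 1, 19 and 10 in knockout (log2 ratio 2.96, -log10 p 12.8 in the authors' deposited table). Its limma estimate was 3.46 ± 0.81 (Benjamini-Hochberg adjusted p = 0.00537). At chr19:52779101-52779400 in GT the values were 57, 60 and 85 against 6, 8 and 16 (2.64), at chr19:57180151-57180600 in ESC 110, 100 and 116 against 36, 10 and 31 (2.04), and at chr19:57122751-57123400 in PP 181, 144 and 179 against 58, 39 and 49 (1.77). These 4 regions were between 300 and 650 bp wide, had no overlap between the groups and were called under all 10 alternatives. At chr19:56657351-56658350 in GT the authors' deposited table gives 243, 242 and 252 against 130, 88 and 144 (1.02).

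Control-higher members with higher values differed by less. In PP, chr19:23432151-23433550 had 1100, 1099 and 1047 in control against 620, 807 and 818 in knockout (0.53 in the authors' deposited table), and D4 had 1141, 1281 and 1268 against 790, 824 and 937. In PE, chr19:53024201-53025150 had 370, 291 and 497 against 240, 274 and 119 (0.87). In ESC, chr19:58609201-58610350 had 1215, 1076 and 1073 against 920, 822 and 674 (0.48). In all of these regions the genotypes were apart. In window C the control-higher member with the highest -log10 p, chr19:44716351-44716950 in PP, had overlapping groups (454, 514 and 554 against 270, 329 and 468, 0.51).

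Membership did not depend on how regions at the window edges were counted. At the end of window E, chr19:58898051-58899350 lay 1300 bp inside (higher in control in ESC, 0.33) and chr19:58905501-58906850 lay 6175 bp outside (higher in knockout in GT, -0.65, in the authors' deposited table). At its start, the nearest outside region was 1250 bp away and higher in control in GT (0.65). Counting regions that touch a window, or that lie wholly inside one, gave 278 as well.

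The share of a library's listed signal that fell in the windows gives 1 value per library. Its sums run over regions listed for a difference between these same libraries, so a difference in the share between genotypes partly restates that selection, and a test of it adds no support. As a percentage of the listed values on chromosome 19, the share was 10.4 ± 0.32 (SD, n = 3) in knockout and 8.79 ± 0.17 in control in ESC, and 7.02 ± 0.15 and 7.65 ± 0.22 in GT. The genotypes were apart at both stages, in opposite directions. They overlapped at the other stages, with 5.95 ± 0.08 and 5.88 ± 0.19 in DE, 4.42 ± 0.11 and 4.80 ± 0.49 in PE, and 5.95 ± 0.19 and 5.91 ± 0.11 in PP. A two-sided exact permutation test gave p = 0.1 in ESC and in GT, the smallest that 3 against 3 libraries can give, and 0.25 after Benjamini-Hochberg adjustment over the 5 stages. As a percentage of all listed values the share was 0.758 ± 0.033 and 0.700 ± 0.035 in ESC, where the genotypes overlapped. On this base the genotypes were apart at the other stages. The shares were 0.296 ± 0.007 and 0.247 ± 0.023 in DE, and 0.311 ± 0.020 and 0.362 ± 0.012 in GT. In PE they were 0.237 ± 0.016 and 0.210 ± 0.010, and in PP 0.332 ± 0.030 and 0.545 ± 0.041. The same permutation test gave p = 0.2 in ESC and 0.1 at each other stage. Which stages were apart thus depended on the base.

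The authors also deposited 9 clusters of wild-type regions, each 500 bp wide and with no measurement. The sources do not say which accessibility pattern a cluster has. The windows held 64 of the 966 cluster regions on chromosome 19 (6.63%). They held 14 of 41 from cluster 2 (34.1%, Wilson 21.6 to 49.5%) and 11 of 65 from cluster 9 (16.9%, 9.72 to 27.8%), but 9 of 271 from cluster 1 (3.32%, 1.76 to 6.19%) and 0 of 20 from cluster 5 (which allows up to 16.1%). Cluster 2 regions lay in windows D (7), A (4) and E (3). Of the 14, 1 overlapped a differential region, beside 8 of 27 cluster 2 regions (29.6%) in the rest of the chromosome. Of the 6 regions of cluster 6, 5 did, beside 88 of 133 (66.2%) in the rest. In all, 22 of the 64 regions (34.4%) overlapped a differential region, against 404 of 902 (44.8%) in the rest of the chromosome. Conversely, 27 of 278 members (9.71%) touched a cluster region, against 13.6% in the rest. E8 was one of them, overlapping a cluster 1 region at chr19:58550003-58550502.

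Because no genome of the files' build was used, the sequence of the members is not shown. RefSeq promoters of GRCh38.p14, each 300 bases around a start site, give the family's own sequence setting without placing it under the members. The 287 promoters of 229 chromosome 19 zinc finger genes had a median GC content of 60.3% and 20 CpG, beside 64.3% and 21 CpG for 1261 promoters of other protein-coding genes of the chromosome and 58.7% and 14 CpG over all 35116 promoters. An exact match on either strand to ATCGAT, a core bound by ONECUT factors, was present in 1 zinc finger promoter (0.348%), against 0.714% of the other chromosome 19 promoters and 0.763% of all. ATTGAT was present in 2.79%, 2.62% and 6.26%. The octamer ATGCAAAT, bound by POU factors, was present in 11 zinc finger promoters (3.83%), against 1.27% and 1.77%. A match is a description of the letters and not of binding.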

How the data were processed

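HUES8 control and HNF6 knockout libraries, 30 samples in 10 groups of 3, were made by ATAC-seq. The submitters' processing notes name the tools Bowtie2 and MACS2 and the build hg19. For versions, the differential test, any transposase shift and any scaling, nothing is given in the sources used here. Per the labels, each deposited list holds the differential regions of 1 genotype and stage. The log2 ratio, the -log10 p and the 6 values of each region are the authors' own; the log2 ratio equals that of the group means with 1 added to each. The deposited columns carry no replicate numbers, so libraries are numbered by deposited order. Members and lists were chosen with earlier results of these data known.

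limma 3.58.1 (R 4.3.3) was fitted per stage to log2(value + 1) with a trend, and p was Benjamini-Hochberg adjusted over all regions listed at the stage, with calls under 0.05. The code was tested on simulated data. Members overlapping by 1 bp or more were joined into loci. Regions named by position were the 3 of highest -log10 p in each list, the 10 loci listed at the most stages, the highest -log10 p per window and direction, the 3 widest, and the 3 largest ratios per direction with a higher mean of at least 50. The remaining recurrent loci were added after their values were seen. Alternatives were another pseudocount, no trend, library medians equalised within genotype, a filter on low values and leaving out each library. Other overlaps and subsets of regions were also tried.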

Additional observations from a re-analysis of the deposited data

Results flagged for a closer look

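At 8 loci the 3 libraries of one genotype lay above the 3 of the other at 1 stage and below them at another, in intervals that overlap in part. Listing in both directions was not particular to the windows. It was found at 10 of 25 recurrent loci there, 251 of 458 in the rest of chromosome 19 and 4491 of 9363 on the other autosomes. How many of the loci outside the windows had groups apart in both directions was not counted. A change of direction between stages was not tested, because each stage lists its own interval. The values are the log2 ratios of control to knockout in the authors' deposited table. B1 had -0.50 in ESC and 0.38 in PP, and D5 had -0.47 in ESC and 0.77 in PP. D2 had -0.42 in ESC and 0.41 in DE, and E6 had 0.91 in ESC and -0.65 in DE. E3 had 0.43 in ESC and -0.42 in GT, E4 had -0.99 in DE and 1.48 in GT, and E2 had 0.87 in GT and -0.87 in PP. E8 had 0.45 in ESC, -0.55 in DE, 0.67 in GT and -0.61 in PP. The opposite intervals shared 100 bp at B1, 350 bp at E4, 500 bp at E2, 550 bp at D5, 700 bp at E6, 1200 bp at E3, 1400 bp at D2 and between 650 and 1400 bp at E8. By limma with Benjamini-Hochberg adjustment, E4 was called at both stages under all 10 alternatives, and E2 under 10 in GT and 9 in PP. Calls at the other loci were often lost: B1 was called under 5 in ESC and 3 in PP, D2 under 5 in ESC and 4 in DE, and D5 under 4 in ESC and 9 in PP. E3 was called under 5 in ESC and 7 in GT, E6 under 7 at each stage, and E8 under 4 in ESC, 5 in DE, 7 in GT and 5 in PP. The groups of 3 are too small for a check of single libraries that stand apart.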

How the results depend on the processing

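Of 114 alternative values, 85 kept their direction and stayed within the spread or within 1.5 times the count, 27 moved and 2 reversed. Member counts and the median sizes were among those that did not move. Their alternatives left the same members in place, so these values could not have moved. The control share of ESC members was 30.5% in the main analysis, 18.75% among members of 2-fold or more and 21.1% without window E. In PP it was 56.1%, and 7.14% among members of 2-fold or more. The count of limma calls was the result most open to the settings. Without the trend it fell to 30 in ESC (31.6% of members, all listed regions 37.8%), 23 in DE (38.3%, all listed 45.1%) and 20 in GT (60.6%, all listed 61.9%). It fell to 18 in PE (54.5%, all listed 48.5%) and 22 in PP (38.6%, all listed 58.7%). In the main fit between 92.8% (PE) and 99.1% (GT) of all listed regions were called, so the fall without the trend was general. With library medians equalised within genotype, 46 PP members (80.7%) were called in place of 56, and 22 of them were higher in control. That setting called 79.5% of the PP regions in the rest of chromosome 19 and 94.6% of all listed PP regions. Leaving out 1 library gave between 30 and 71 calls in ESC, 19 and 48 in DE, 18 and 32 in GT, 21 and 27 in PE, and 26 and 42 in PP. The share called over all listed regions then ran from 33.9 to 73.3% in ESC, 39.0 to 74.0% in DE and 54.9 to 85.5% in GT. It ran from 51.1 to 70.9% in PE and 43.3 to 78.1% in PP. In deposited order, the count moved by over 1.5 times without ESC control libraries 1 (35) and 2 (35) or knockout libraries 1 (42), 2 (44) and 3 (30). In DE it did so without control libraries 2 (20) and 3 (31) or knockout libraries 1 (19) and 3 (34), in GT without knockout library 3 (18) and in PE without knockout library 1 (21). In PP it did so without control libraries 1 (36), 2 (35) and 3 (32) or knockout libraries 1 (26) and 2 (36). The control minus knockout share of listed signal in the windows reversed when taken over chromosome 19 alone: from -0.028 to 0.387 percentage points in PE and from 0.214 to -0.043 in PP. In the upper part of each list by -log10 p, 13 loci recurred in place of 25, 4 of 8 at 3 stages or more, and 3 of 6 in 1 direction. Each has the cause not tested, except that the upper part of the lists and the smaller sets hold fewer regions.

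No paired analysis was possible because the deposited columns carry no replicate numbers. The depth of the libraries is unknown. The files hold regions that the authors had listed as different, and accessibility of the windows outside those lists was not analysed here.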
